A study of Mus musculus with 8 samples.

Results

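The granins and dense-core granule proteins examined here are 10 genes whose products fill or enclose the hormone granules of endocrine cells: the granin family members Chga, Chgb, Scg2, Scg3 and Vgf, the receptor phosphatase-like granule membrane proteins Ptprn and Ptprn2, and the vesicle transporter-like proteins Sv2a, Sv2b and Sv2c. Their probe sets were taken by gene symbol, not by value, though the genes were chosen with earlier results of these data known. Each of the 10 was found on exactly 1 probe set, out of 19494 named genes. Expression was measured on Clariom S arrays, which carry 1 probe set per transcript cluster, in alphaTC1.9 cells, a clonal mouse line derived from a glucagon-producing tumour. The groups were IDE-KD cells, in which a small interfering RNA was directed against insulin-degrading enzyme (Ide, a zinc-dependent enzyme that cuts insulin and glucagon among other peptides), on 4 arrays, and control alphaTC1.9 cells, also on 4 arrays. Both groups grew in medium with 16 mM glucose, and the labels name no further agent. The labels call the 4 samples of each group biological replicates. They do not state whether the control cells received a non-targeting RNA, how long the knockdown lasted or whether replicates were separate cultures. P-values are therefore set against a spread between samples that may be partly technical.

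Granins are acidic secretory proteins that aggregate with calcium in the mildly acidic trans-Golgi network and there help to sort hormones into forming granules. Most of them are also cut by prohormone convertases into bioactive peptides. Ptprn and Ptprn2 span the granule membrane, lack ordinary phosphatase activity and are autoantigens in type I diabetes, while SV2 proteins are glycosylated membrane proteins of synaptic vesicles and dense-core granules. In alpha cells the granules carry glucagon.

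Several of these genes share a short cyclic AMP response element, or its core, just upstream of their start sites, and the stretches that hold it are shown because this is a feature on which the choice of genes did not draw. RefSeq promoter windows (build GRCm38.p6, 250 bases before to 50 after each annotated start) were found for 9 of the 10 genes, all but Vgf. The palindrome TGACGTCA was found in 2 of these 9 genes, Scg2 and Chgb, and in 2.03% of all 27025 genes with such windows. Its core TGACG, searched on both strands and contained in the palindrome, was found in 5 of the 9 genes and in 23.0% of all genes. The 5 windows below run from 120 bases to 1 base before the start site, 5′ to 3′ on the gene's strand, with matches in capitals.
Scg2: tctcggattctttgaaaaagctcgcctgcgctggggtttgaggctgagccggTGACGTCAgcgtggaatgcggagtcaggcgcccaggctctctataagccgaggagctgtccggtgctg
Chgb: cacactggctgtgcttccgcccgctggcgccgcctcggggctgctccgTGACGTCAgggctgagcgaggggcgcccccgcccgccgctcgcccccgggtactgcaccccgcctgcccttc
Chga: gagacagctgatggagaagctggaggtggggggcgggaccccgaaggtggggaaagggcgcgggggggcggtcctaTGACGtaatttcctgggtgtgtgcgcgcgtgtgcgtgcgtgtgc
Ptprn: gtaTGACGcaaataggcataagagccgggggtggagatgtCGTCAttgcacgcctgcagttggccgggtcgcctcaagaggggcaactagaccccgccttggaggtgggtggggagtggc
Scg3: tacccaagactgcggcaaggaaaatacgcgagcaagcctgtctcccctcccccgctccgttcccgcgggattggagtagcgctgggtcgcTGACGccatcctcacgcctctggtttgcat

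These windows lie at chr1:79440027-79440146 (minus strand) for Scg2, chr2:132781522-132781641 (plus strand) for Chgb, chr12:102554821-102554940 (plus strand) for Chga, chr1:75264209-75264328 (minus strand, the upstream one of the annotated Ptprn start sites) for Ptprn and chr9:75684057-75684176 (minus strand) for Scg3. The palindrome began 72 bases before the start of Chgb and 68 before that of Scg2, and the core began 44 bases before the start of Chga and 30 before that of Scg3. Ptprn held the core at 117 bases and, on the other strand, at 80 bases before that start. Neither Ptprn2 nor any SV2 gene had the core in its windows. The GC-box letters GGGCGG, on either strand, were present in 7 of the 9 genes and in 38.2% of all genes, and TATAAA, on either strand, in 2 of the 9 and in 15.7% of all. These are matches of letters and say nothing of factor binding in these cells.

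The arrays were alike at the level of the whole series: the 22142 tested probe sets had array medians of 5.10 to 5.17, and correlations between arrays ran from 0.984 to 0.993. IDE-KD arrays 1 and 3 had the smallest spread over probe sets, with SDs of 2.16 and 2.13 against 2.20 to 2.25 on the other arrays. The labelled cell type was checked against markers. Glucagon (Gcg) averaged 12.06 ± 0.10 in IDE-KD and 12.06 ± 0.07 in control cells on the log2 scale (SD, n = 4 each), and the alpha cell transcription factor gene Irx2 averaged 8.65 ± 0.17 and 8.72 ± 0.11. Of 17 measured markers of fibroblasts, endothelium, immune and exocrine cells, 16 stayed under the 95th percentile of the intron control rows on every array; that percentile, between 6.84 and 7.03, is used below as a strict bound for signal over background. The list averaged 3.86 to 4.13 on IDE-KD arrays and 3.71 to 3.90 on control arrays, and 15 of its 17 genes had differences above 0. An unadjusted limma p under 0.05 was reached by 3 of the 17 (17.6%, beside 4.59% of all probe sets), 2 above 0 and 1 below, and an adjusted p under 0.05 by 0. Of 14 alpha cell markers listed, 10 were measured, and 5 of these exceeded that bound on all 8 arrays and 5 on none. The alpha cell marker Ttr, at means of 6.01 in IDE-KD and 5.92 in control cells, exceeded it on 0 arrays. Of all 19527 named probe sets, 4261 exceeded the bound on all 8 arrays. Among delta, PP and epsilon cell markers 1 of 6 exceeded it on all 8, among beta cell markers 2 of 10 and among neuronal and chromaffin markers 7 of 12. The last include Th, at means of 8.87 in IDE-KD and 8.98 in control cells.

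Ide checked the knockdown. It read 7.91, 8.14, 7.92 and 8.05 on IDE-KD arrays 1 to 4 and 8.66, 8.62, 8.72 and 8.48 on control arrays 1 to 4, so that every IDE-KD array lay under every control array. The fitted log2 difference, IDE-KD minus control, was -0.62 (SE 0.12), or 1.53-fold lower, and limma's adjusted p over all probe sets was 1.00. Its unadjusted p in limma was 0.000164, rank 3 of 22142. The knockdown target itself thus did not pass the adjusted threshold, which limits what a failure to pass can say of other genes.

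Expression of the granule genes differed little between IDE-KD and control cells. None of the 10 passed limma's test at an adjusted p under 0.05, and 0 of all 22142 probe sets did (background 0%). At an unadjusted p under 0.05 stood 1 of the 10, Vgf, where 4.59% of all probe sets stood. The groups overlapped at all 10 genes; they did not overlap at 2.80% of all probe sets. Fitted differences were below 0 at 7 genes and above 0 at 3, beside 47.9% of all probe sets below 0, and their median was -0.01 with a median size of 0.064, against medians of 0.0074 and 0.101 over all probe sets. The count below 0 was 4 after cyclic loess and 4 without control array 2, since several differences were close to 0. The 95% confidence interval left out a 1.5-fold change in either direction at 9 of the 10 genes, all but Vgf, and at 83.6% of all probe sets. In these whole-culture samples fewer cells that make a transcript and less of it per cell cannot be told apart.

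**Figure D1:**
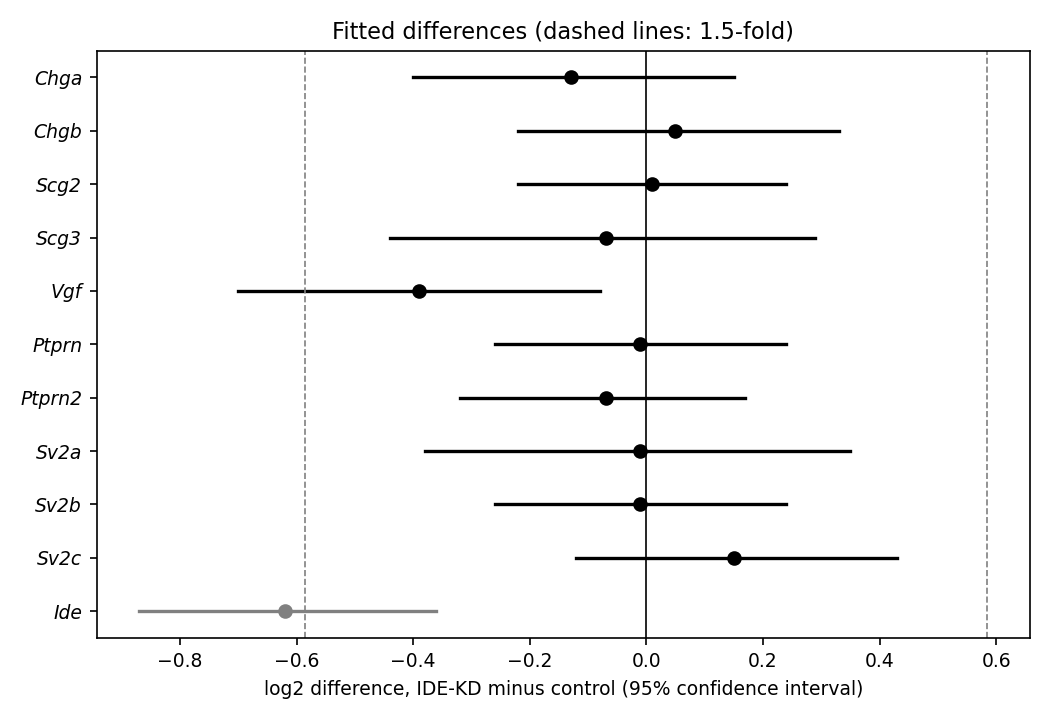
Fitted log2 differences, IDE-KD minus control, with 95% confidence intervals for the 10 granule genes and, in grey, Ide (n = 4 arrays a group); dashed lines mark 1.5-fold. Among the 10, only the interval of Vgf, -0.70 to -0.08, lies wholly on one side of 0 and reaches past 1.5-fold.

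Vgf, which encodes a granin-like precursor induced by nerve growth factor and cut into several neuroendocrine peptides, had the largest fitted difference of the 10. It read 7.09, 6.64, 6.46 and 6.76 on IDE-KD arrays 1 to 4, against 7.02, 7.13, 7.12 and 7.24 on control arrays 1 to 4. IDE-KD arrays 2, 3 and 4 were below every control array, and IDE-KD array 1 was among them, above control array 1. The means were 6.74 ± 0.27 in IDE-KD and 7.13 ± 0.09 in control cells (SD, n = 4 each), a log2 difference of -0.39 (SE 0.14), or 1.31-fold lower. It ranked 330 of 22142 by p, with an unadjusted p of 0.0167 and an adjusted p of 1.00 in limma, and an exact permutation test, two-sided, over the 8 values gave p = 0.0571, where the smallest possible is 0.0286. Vgf therefore did not pass. Its signal was over the strict background bound on 5 of 8 arrays, IDE-KD array 1 and all 4 control arrays, and under it on IDE-KD arrays 2, 3 and 4.

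Chga, chromogranin A, the prototype granin and precursor of vasostatin and pancreastatin, had the same IDE-KD arrays below the control arrays, by smaller amounts. Its levels were 10.85, 10.43, 10.52 and 10.49 on IDE-KD arrays 1 to 4, against 10.66, 10.63, 10.85 and 10.66 on control arrays 1 to 4. Arrays 2, 3 and 4 of the IDE-KD cells were each below every control array, and IDE-KD array 1 was level with the highest control array. The log2 difference was -0.13 (SE 0.13), with a 95% interval of -0.40 to 0.15 and an exact two-sided permutation p of 0.314. Without IDE-KD array 1 it was -0.22 for Chga (unadjusted p = 0.0971 in limma) and -0.51 for Vgf (unadjusted p = 0.0021), and neither passed, with an adjusted p of 0.967 each in limma. Without IDE-KD array 3, the difference of Vgf was -0.30 and its unadjusted limma p 0.0553, no longer under 0.05.

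Chgb, chromogranin B, a close relative of Chga in granule sorting, read 9.45, 8.99, 9.24 and 9.10 on IDE-KD arrays 1 to 4, against 9.13, 9.12, 9.08 and 9.24 on control arrays 1 to 4. The IDE-KD values spread to both sides of the control values, with an SD of 0.20 against 0.07. The log2 difference was 0.05 (SE 0.13, interval -0.22 to 0.33), and it was -0.031 without IDE-KD array 1. Scg2, secretogranin II, the precursor of secretoneurin, was the steadiest granin: it read 11.12, 11.28, 11.24 and 11.20 in IDE-KD cells, against 11.26, 11.19, 11.19 and 11.16 in control cells. All 8 arrays lay within this narrow band, and the log2 difference of 0.01 (SE 0.11) had an interval of -0.22 to 0.24. Scg3, secretogranin III, which holds chromogranin A aggregates to the cholesterol-rich granule membrane, read 7.06, 7.11, 7.02 and 6.59 in IDE-KD cells, against 7.01, 6.68, 7.40 and 6.99 in control cells. It varied by array in both groups, with SDs of 0.24 and 0.30, and its log2 difference was -0.07 (SE 0.17, interval -0.44 to 0.29). Scg3 exceeded the background bound on 6 of 8 arrays.

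**Figure D2:**
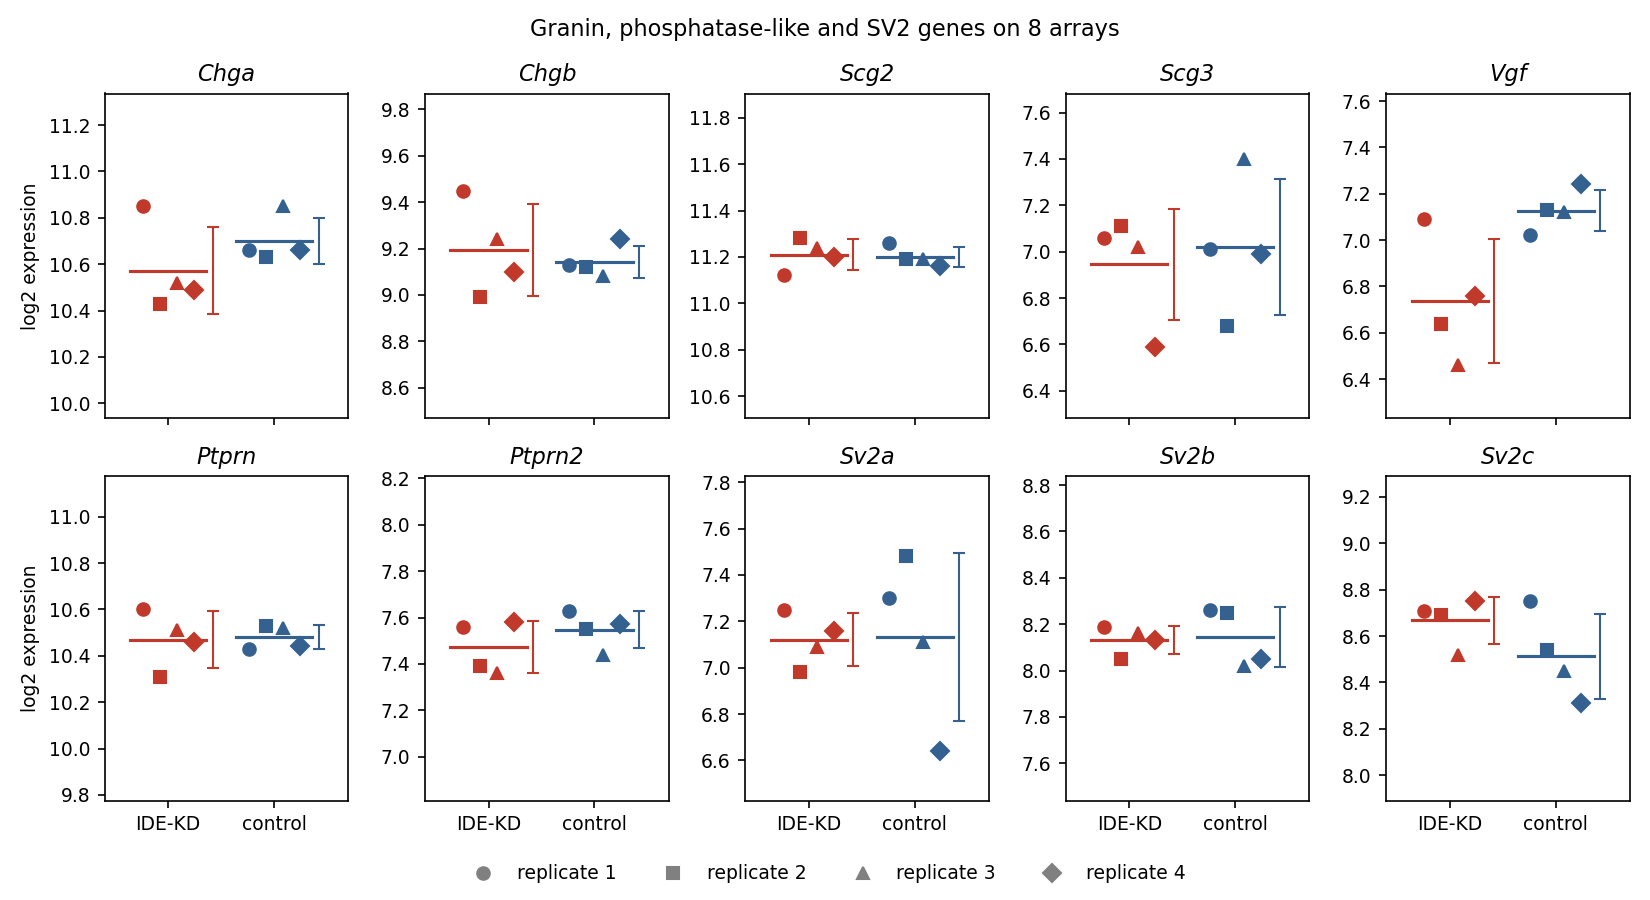
Log2 expression of the 10 genes on each array, with IDE-KD arrays left and control arrays right of each panel; marker shape gives the replicate number, horizontal lines are group means and bars show 1 SD. Each panel spans the same log2 range, so that spreads can be compared; Vgf and Chga show 3 IDE-KD arrays under all control arrays and IDE-KD array 1 among or level with them.

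The phosphatase-like pair had fitted differences close to 0. Ptprn, whose cytoplasmic tail ties granules to the cytoskeleton, read 10.60, 10.31, 10.51 and 10.46 in IDE-KD cells, against 10.43, 10.53, 10.52 and 10.44 in control cells. IDE-KD arrays held both the highest and the lowest of the 8 values, and the log2 difference was -0.01 (SE 0.11, interval -0.26 to 0.24). Ptprn2, also called phogrin, read 7.56, 7.39, 7.36 and 7.58 in IDE-KD cells, against 7.63, 7.55, 7.44 and 7.57 in control cells. IDE-KD arrays 2 and 3 were below every control array while arrays 1 and 4 lay among them, and the log2 difference was -0.07 (SE 0.11, interval -0.32 to 0.17).

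The SV2 genes encode membrane proteins that resemble sugar transporters and bind synaptotagmin, and their signal exceeded the strict background bound on all 8 arrays for Sv2b and Sv2c and on 7 of 8 for Sv2a. Sv2c, which botulinum neurotoxin A uses as a receptor, had the largest difference above 0 of the 10 genes: it read 8.71, 8.69, 8.52 and 8.75 in IDE-KD cells, against 8.75, 8.54, 8.45 and 8.31 in control cells. IDE-KD arrays 1, 2 and 4 lay above control arrays 2, 3 and 4, but control array 1 was level with the highest IDE-KD array, and the log2 difference was 0.15 (SE 0.13, interval -0.12 to 0.43; exact two-sided permutation p = 0.229). Sv2a, the binding site of the antiseizure drug levetiracetam, read 7.25, 6.98, 7.09 and 7.16 in IDE-KD cells, against 7.30, 7.48, 7.11 and 6.64 in control cells. The IDE-KD values sat inside the control range, and the log2 difference was -0.01 (SE 0.17, interval -0.38 to 0.35). Its control SD of 0.36 was exceeded at 6.17% of all probe sets, and without control array 4 the difference was -0.18. Sv2b read 8.19, 8.05, 8.16 and 8.13 in IDE-KD cells, against 8.26, 8.25, 8.02 and 8.05 in control cells. These IDE-KD values too sat inside the control range, with a log2 difference of -0.01 (SE 0.11, interval -0.26 to 0.24).

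Small changes could be bounded best at Scg2, Ptprn and Sv2b, where the 95% interval left out even a 1.2-fold change in either direction, as it did at 1.52% of all probe sets. The intervals were widest at Sv2a and Scg3 and at Vgf, with SEs of 0.17, 0.17 and 0.14, against a median SE of 0.146 over all probe sets.

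The 4 IDE-KD arrays differed among themselves. IDE-KD array 1 was the highest of the 4 IDE-KD arrays at 6 of the 10 genes, among them Chga, Chgb, Vgf and Ptprn, and IDE-KD array 2 the lowest at 5. As means of deviations from the control mean, the 5 granins stood at 0.08, -0.15, -0.14 and -0.21 on IDE-KD arrays 1 to 4, against -0.02, -0.09, 0.09 and 0.02 on control arrays 1 to 4. The phosphatase-like pair stood at 0.06, -0.17, -0.08 and 0.01 on IDE-KD arrays, against 0.02, 0.03, -0.03 and -0.01 on control arrays, and the SV2 genes at 0.12, -0.02, -0.01 and 0.08 on IDE-KD arrays, against 0.17, 0.16, -0.07 and -0.26 on control arrays. Much of the granin mean came from Vgf: the other 4 granins averaged 0.11, -0.06, -0.01 and -0.17 on IDE-KD arrays 1 to 4, against 0.00, -0.11, 0.11 and 0.00 on control arrays 1 to 4. Those IDE-KD means were on both sides of 0, and the lowest of them, on IDE-KD array 4, held the low Scg3 value of that array. The array on which Vgf, Chga and Chgb were highest among IDE-KD arrays was also the one with the lowest Ide level, 7.91, though Ide differed little among IDE-KD arrays. IDE-KD array 3, with Ide at 7.92, had the lowest Vgf value, 6.46. A link between the levels of Ide and the granins was not tested. IDE-KD array 1 also had a small spread over all probe sets, as did array 3; whether that has a part in the granin values was not tested.

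**Figure D3:**
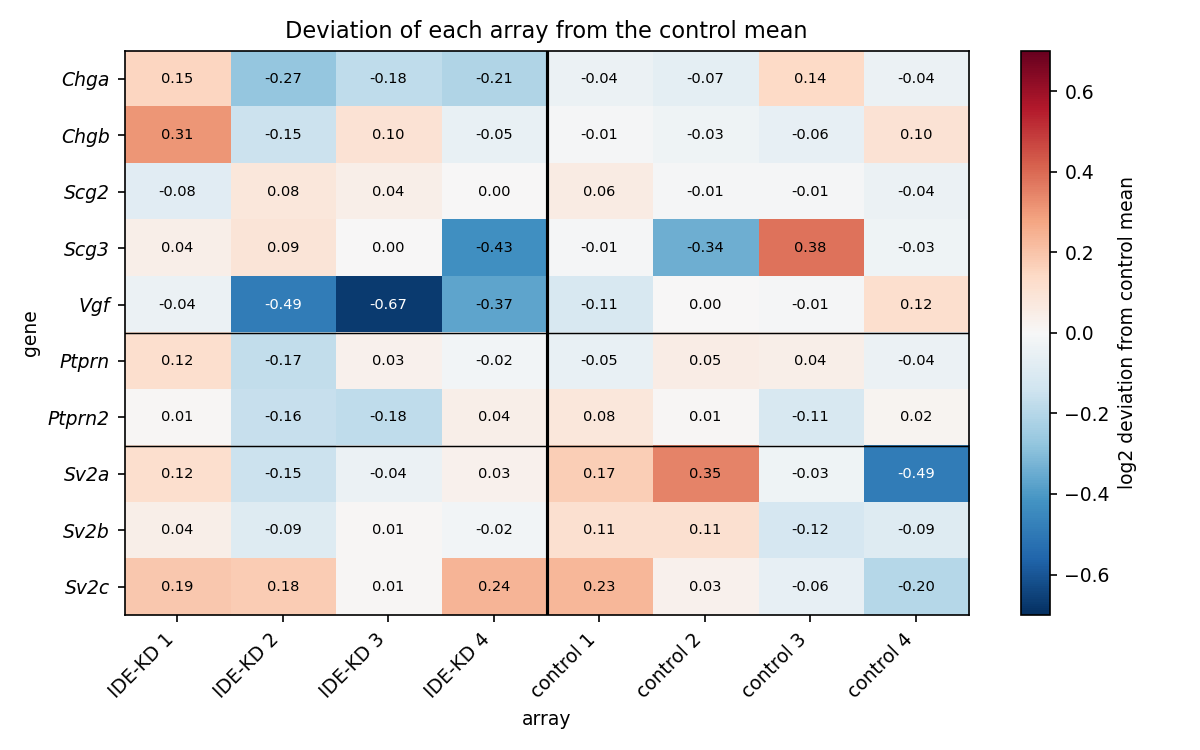
Deviation of each array from the control mean for the 10 genes, in log2 units, with IDE-KD arrays left of the line and control arrays right of it; horizontal lines part the granins, the phosphatase-like pair and the SV2 genes. Vgf is at -0.49, -0.67 and -0.37 on IDE-KD arrays 2, 3 and 4 and at -0.04 on IDE-KD array 1, and the largest control deviations belong to Sv2a and Scg3.

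Leaving out each array in turn moved the difference of Vgf between -0.51 (without IDE-KD array 1) and -0.30 (without IDE-KD array 3), and that of Chga between -0.22 (without IDE-KD array 1) and -0.079 (without control array 3). Sv2c ranged from 0.088 without control array 4 to 0.23 without control array 1. The remaining genes crossed 0 or stayed near it: Scg3 ran from -0.19 without control array 2 to 0.053 without control array 3, and Sv2a from -0.18 to 0.10, whereas Ptprn2 stayed between -0.11 and -0.037. The lowest adjusted p of any of the 10 genes in these fits was 0.759.

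**Figure D4:**
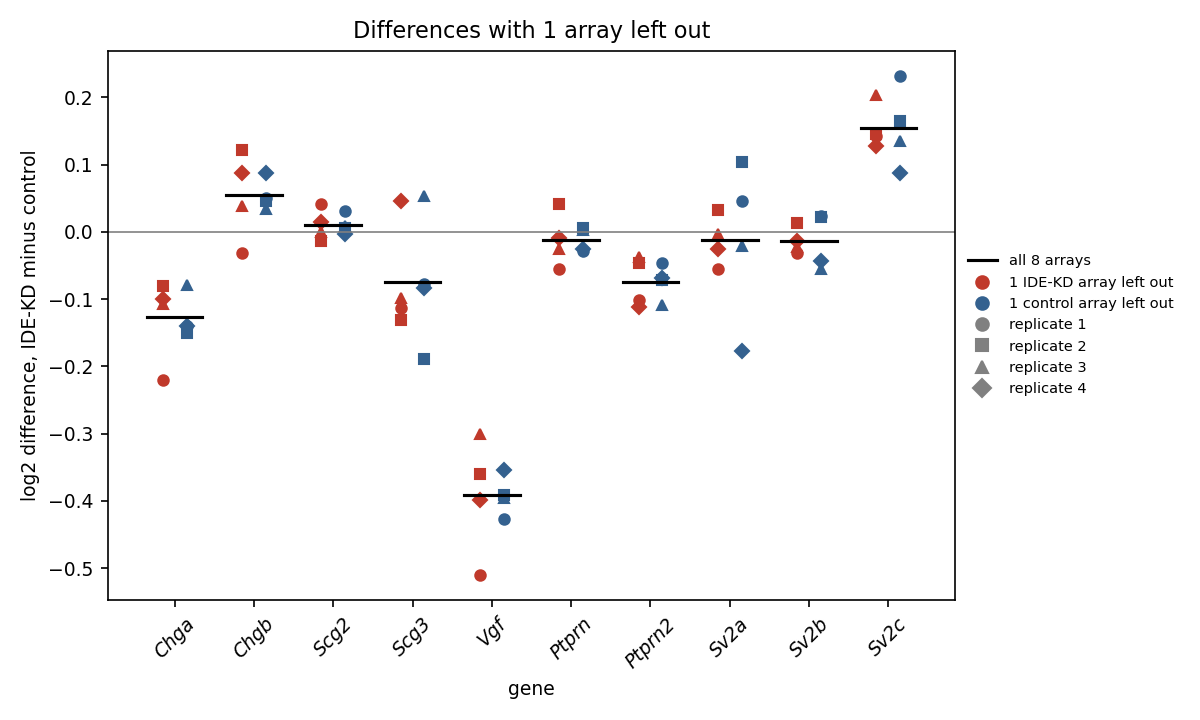
Log2 difference, IDE-KD minus control, of each gene with 1 array left out; red and blue points lack an IDE-KD or a control array, marker shape gives its replicate number and black bars show the value with all 8 arrays. Vgf stays between -0.51 and -0.30, while Chgb, Scg2, Scg3, Ptprn, Sv2a and Sv2b take values on both sides of 0.

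The profiles most like that of Vgf over the 8 arrays, by the root mean square difference of log2 values after each gene's own mean was subtracted, were those of Zxdc (0.0923), Map4 (0.101) and Zfp943 (0.103), out of 11027 probe sets searched. Zxdc, a zinc finger gene, read 7.50, 7.19, 7.11 and 7.41 in IDE-KD cells, against 7.59, 7.54, 7.61 and 7.69 in control cells, and Map4, which encodes a microtubule-associated protein, read 8.27, 7.91, 7.78 and 8.24 in IDE-KD cells, against 8.27, 8.27, 8.29 and 8.52 in control cells. Both had their highest IDE-KD value on array 1, like Vgf, but the search for likeness selects such profiles, so this is no separate result. The profiles most like that of Sv2c were those of Rcn1 (0.0520), Atp11b (0.0682) and Reep3 (0.0684). None of these 6 genes passed limma's test (adjusted p = 1.00 each).

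Other genes of the dense-core granule were read from 7 lists, and in each of them 0 members passed in either direction at an adjusted p under 0.05. The 2 genes named from each list were picked by the smallest limma p in these data, so their values are no separate result. Where groups of 4 do not overlap, the exact two-sided permutation p is always 0.0286, so it adds nothing to the lack of overlap. Among 14 measured processing enzymes and chaperones, 7 were below 0 and 7 above (median log2 difference 0.00089), with the convertase gene Furin at 0.20 (SE 0.15) and Scg5, which encodes the PC2 chaperone, at 0.16 (SE 0.16). Pcsk2, the gene of PC2 itself, had no named probe set and was not measured, so these counts do not cover it. Furin was 0.094 without IDE-KD array 1, Scg5 was 0.025 without IDE-KD array 2, and the count below 0 was 4 without control array 2. Among 26 peptide cargo genes other than granins, 7 were below 0 and 19 above (median 0.068), with Tac1, the substance P precursor, at 0.53 (SE 0.18) and Penk, the enkephalin precursor, at 0.42 (SE 0.16). Both stood above 0 at an unadjusted p under 0.05, as did 2.69% of all probe sets. Both also stayed under the median array control row of 4.52 in each group, at means of 3.25 and 3.76 in IDE-KD cells, against 2.72 and 3.34 in control cells, and without control array 4 the count below 0 was 13 of 26. Only 2 of the 26 cargo genes were over the strict background bound on all arrays, beside 4261 of all 19527 named probe sets. The markers of fibroblasts, endothelium, immune and exocrine cells, also mostly at low signal, had 15 of 17 differences above 0 (median 0.11), and the part of low signal or of such cells in the cargo values was not tested. Among 22 membrane transporters, 11 were below 0 and 11 above (median -0.025), with Svop, a relative of the SV2 genes, at 0.22 (SE 0.12) and the proton pump subunit gene Atp6v0a2 at -0.18 (SE 0.12). The groups did not overlap at either gene, as at 2.80% of all probe sets, and the unadjusted limma p was 0.0801 and 0.144.

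The 23 synaptic-like vesicle membrane genes had 10 differences below 0 and 13 above (median 0.058). The synaptogyrin gene Syngr3 read 7.76, 7.81, 7.93 and 7.93 on IDE-KD arrays, against 7.24, 7.65, 7.44 and 7.34 on control arrays, a log2 difference of 0.44 (SE 0.12). Syngr2 read 9.19, 9.48, 9.26 and 9.42 on IDE-KD arrays, against 8.90, 9.17, 8.96 and 9.11 on control arrays, a difference of 0.30 (SE 0.12). For both synaptogyrins every IDE-KD array lay above every control array (exact two-sided permutation p = 0.0286 each), with unadjusted limma p of 0.00366 and 0.0288 and adjusted p of 1.00, and 2.80% of all probe sets kept the groups apart. The list's median turned to -0.026 when only genes over the background bound on at least 4 arrays were kept, to -0.01 without IDE-KD array 4 and to -0.0039 without control array 1.

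Granule biogenesis and maturation factors had 24 of 38 differences below 0 (median -0.026), and 2 stood below 0 at an unadjusted p under 0.05, beside 1.91% of all probe sets. Sntb2, a syntrophin that binds the Ptprn tail, read 6.24, 6.47, 6.40 and 6.63 on IDE-KD arrays, against 6.89, 7.04, 6.67 and 6.73 on control arrays, a log2 difference of -0.40 (SE 0.13). Tbc1d8b, of a family of Rab GTPase-activating proteins, differed by -0.43 (SE 0.13). The groups did not overlap at either gene, as at 2.80% of all probe sets, and the adjusted limma p was 1.00 for each. Sntb2 was over the background bound on 1 of 8 arrays.

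Docking and priming factors had 15 of 32 differences below 0 (median 0.0053), with Sytl1 at -0.27 (SE 0.13) and Rph3a at 0.39 (SE 0.22), both with means under the median array control row of 4.52. Rph3a was 0.21 without control array 2 and 0.60 without IDE-KD array 2. Regulators of granule gene transcription had 18 of 27 differences below 0 (median -0.065). In that list Egr1, an immediate-early factor, read 5.61, 5.99, 5.91 and 5.72 on IDE-KD arrays, against 4.91, 4.45, 4.85 and 5.30 on control arrays, a log2 difference of 0.93 (SE 0.17; exact two-sided permutation p = 0.0286, adjusted limma p = 1.00), at a level under the strict background bound on all 8 arrays. Crtc1, a coactivator of the factor that binds cyclic AMP response elements, read 7.84, 7.70, 7.70 and 7.82 on IDE-KD arrays, against 7.88, 7.98, 7.95 and 8.06 on control arrays. All IDE-KD values of Crtc1 were under all control values, and 2.8% of all probe sets kept the groups apart. The difference was -0.20 (SE 0.11, interval -0.44 to 0.04). Its exact two-sided permutation p was 0.0286, the smallest possible, which follows from the lack of overlap. In limma its unadjusted p was 0.0935, not under 0.05, and its adjusted p 1.00. The medians of the lists were small and moved with single arrays. With 1 array left out, that of the processing enzymes ran from -0.013 (without IDE-KD array 4) to 0.037 (without IDE-KD array 3), that of the peptide cargo from 0.022 (without IDE-KD array 3) to 0.093 (without control array 3), and that of the transporters from -0.051 (without IDE-KD array 3) to 0.0053 (without IDE-KD array 2). That of the biogenesis factors ran from -0.051 (without control array 1) to -0.0013 (without control array 2), that of the docking factors from -0.02 (without control array 2) to 0.024 (without IDE-KD array 4), and that of the regulators from -0.088 (without control array 2) to -0.026 (without IDE-KD array 1). Over all 19527 named probe sets the median was 0.0067, with 9404 below 0.

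**Figure D5:**
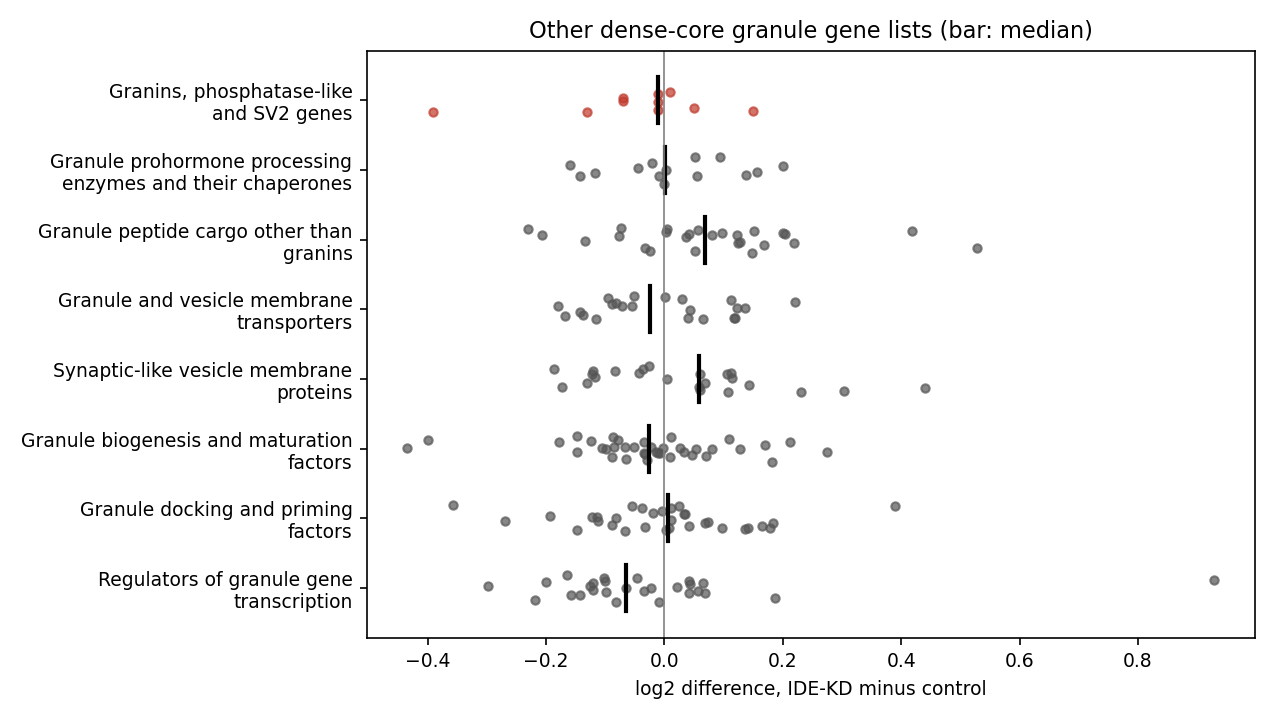
Log2 difference, IDE-KD minus control, of each measured gene in the 10-gene set (top, red) and in 7 other granule gene lists; black bars are medians. Medians lie between -0.065 and 0.068, and the point farthest from 0 is Egr1 at 0.93.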

How the data were processed

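The table deposited by the authors held log2 expression, with a column for each array. RMA, oligo and limma appear in the submitters' processing notes, with no version or role. RMA in its usual form equalises distributions between arrays, so a global change in RNA per cell would be removed, and low signals are compressed. No label names the genome build of the probe sets. Of 29129 rows, 22142 transcript clusters were tested, and 6923 array control rows and 64 unplaced rows were left out. A single symbol was annotated for 19527 tested rows and none for 2615.

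IDE-KD minus control was fitted over all 8 arrays with limma 3.58.1 (lmFit, eBayes) in R 4.3.3 and no covariates. P-values were adjusted by Benjamini-Hochberg over all 22142 rows and called under 0.05. The step was tested on simulated data with known changes of 2-fold or more. Smaller changes, such as those fitted at the 10 genes, were not simulated. A log2 difference of 1 is a 2-fold change. Precision is limited by the number of arrays, and 95% intervals reached a median of 0.275 to either side over the 10 genes. The exact two-sided permutation test used the 8 values of a gene. Promoter windows came from RefSeq. The genes, the 12 gene lists (255 entries) and the alternatives were chosen with earlier results of these data known. From each of the 7 granule lists, none with a passing gene, the 2 genes with the smallest p were named, and likeness was searched for the 2 of the 10 genes with the smallest p among named rows at or above the median array control row. The Ide check was named whatever its value. Gcg, Irx2, Ttr and Th were named from a longer set of marker genes. Alternatives were other scalings, variance models, filters, blocks and left-out arrays.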

Additional observations from a re-analysis of the deposited data

Results flagged for a closer look

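Among the 31 genes named with values by array, 62 groups of 4 were searched for an array far from the other 3, and 3 were found; chance flags about 5% of groups. Chga stood at 10.85 on control array 3, with the other control arrays between 10.63 and 10.66. Without that array the difference of Chga was -0.079. Tac1 stood at 3.09 on control array 1, with the others between 2.57 and 2.61, and Map4 at 8.52 on control array 4, with the others between 8.27 and 8.29.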

How the results depend on the processing

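Under 19 alternatives the count of the 10 genes past the threshold stayed at 0, as did that over all probe sets, and the smallest adjusted p of any of the 10 was 0.569 in limma. Vgf, Chga, Ptprn2 and Sv2c kept their direction under all 19 alternatives. With scaling, filter, variance model and block changed, Vgf lay between -0.41 and -0.36 with unadjusted p between 0.00766 and 0.0221; without IDE-KD arrays 1 and 3 it was -0.43. The other 6 genes turned sign in 24 of their 114 values, to between -0.096 and 0.104. Sv2a was 0.012 after quantile normalization again, 0.016 after cyclic loess and 0.008 with array weights, and Sv2b 0.013, 0.014 and 0.001. Ptprn was 0.007 after cyclic loess, Scg2 -0.003 after subtracting array medians, and without IDE-KD arrays 1 and 3 Chgb was -0.096 and Furin -0.046. With 1 array left out, Chgb ran from -0.031 to 0.121, Scg2 from -0.013 to 0.041, Scg3 from -0.189 to 0.053, Ptprn from -0.055 to 0.042, Sv2a from -0.177 to 0.104 and Sv2b from -0.055 to 0.023. The number of the 10 genes below 0 was 4 after cyclic loess and ran from 4 to 8 with 1 array left out, and their median from -0.0561 to 0.00569. Shared replicate numbers did not pair the arrays by the rule used, with correlations of same-numbered deviations between 0.09 and 0.13. Deviations of IDE-KD arrays 1 to 4 correlated best with those of control arrays 3, 2, 1 and 2. Odd numbers thus matched odd ones and even matched even. With the replicate block Vgf was -0.392 (adjusted p = 0.843 in limma), and the block changed no other call. With an odd-even block Vgf was also -0.392 (adjusted p = 0.724 in limma). Without IDE-KD arrays 1 and 3 the peptide cargo list had 13 differences below 0 and the synaptic-like vesicle list 6. Of the 10 genes, Vgf was over the strict background bound on 5 of 8 arrays, Scg3 on 6 and Sv2a on 7. The cause of these shifts was not tested.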
